A study of Bos taurus with 4 samples.

Results

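The 4 genes described here are MDH1 (ENSBTAG00000019295), HSDL2 (ENSBTAG00000031295), YBX1 (ENSBTAG00000017368) and ENSBTAG00000016688, which has no gene name in the study. They are 4 of the 24616 Ensembl genes in the deposited muscle table. The study measured each of them by qPCR as well, and those qPCR values are not used here. The genes were chosen from the diet comparison in these same libraries, as genes higher on grass in both grass-fed libraries. Their diet differences are therefore given as a description, with no p-value, and the number of them called by each fit over all genes is no evidence for them.

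The libraries came from longissimus dorsi, the long muscle of the back, of Aberdeen Angus steers raised in 1 herd. All steers shared a diet until weaning and were then assigned at random to a finishing regimen. Steers on grass took longer to reach market weight and were older at slaughter, and season of slaughter may differ too. The paper also describes the grain-fed steers as confined and the grass-fed steers as moving freely. Age, season, housing and exercise therefore cannot be told apart from diet. The grass-fed group ate alfalfa, grass and hay or bales and no grain. The grain-fed group ate corn silage, shelled corn, soybean and minerals. Each diet had 2 steers and 1 RNA-Seq library per steer, and the columns name the diet but not the steer, so that "library 1" and "library 2" are only the numbers of the columns. The libraries held from 5683894 to 7447453 reads on genes.

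MDH1 is the cytosolic malate dehydrogenase, which converts malate and oxaloacetate into each other with NAD as cofactor. In muscle it works in the malate-aspartate shuttle, which carries the reducing equivalents of glycolysis into mitochondria. HSDL2 belongs to the short-chain dehydrogenases, carries a sterol carrier domain and is known from peroxisomes, where it has been tied to lipid metabolism. YBX1 is a cold-shock domain protein that binds RNA and DNA, packs messenger RNA in the cytoplasm and acts in its translation and stability. For ENSBTAG00000016688 no function is given in the sources used here.

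The transcripts the study assayed by qPCR are marked by its primers, which are shown because they are the sequences that tie each gene to a second assay. All are written 5′ to 3′ in lower case, 20 or 21 bases long, with a GC content between 47.6% and 55.0%.
MDH1 forward: atccagccaataccaactgc
MDH1 reverse: tgaagttctccttggggatg
HSDL2 forward: tgcattgtggcctaaaacagc
HSDL2 reverse: cccagcatatccatagcagc
YBX1 forward: tcgaccacagtactccaacc
YBX1 reverse: agcaccctccatcacttctc
ENSBTAG00000016688 forward: agttcacccattaagctgcca
ENSBTAG00000016688 reverse: gcacactagagtcaccatgct

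The deposited values are edgeR pseudo-counts, which are reads adjusted to 1 common library size. Set per 1000000 of the mean column total they are called normalised values below, and log2 differences are grass-fed minus grain-fed on the log2(value + 1) scale, which understates the change of genes with few reads. The whole reads behind each value were recovered by inverting the adjustment. Levels are compared between diets and not between genes, since no transcript lengths were used.

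Grain-fed library 1 held 52 reads of MDH1 and grain-fed library 2 held 134, against 1023 in each library from grass. The normalised values were 10.1 and 27.4 for grain and 116 and 109 for grass. Both grass-fed libraries stood above both grain-fed libraries, and the grain-fed pair was the less alike of the pairs. The mean was 18.8 ± 12.2 (SD, n = 2) on grain and 112 ± 4.35 (SD, n = 2) on grass, a ratio of means of 6.00, and the log2 difference was 2.68. The size of the change depended on the grain-fed library it was measured against, with single grass-fed libraries between 3.99 and 11.5 times single grain-fed ones. Without grain-fed library 1, the one with fewest MDH1 reads, the log2 difference was 2.0, and without grain-fed library 2 it was 3.35.

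For HSDL2 the counts were 9 and 6 reads under grain feeding against 145 and 252 under grass feeding. Its normalised values were 1.74 and 1.24 on grain against 16.4 and 27.0 on grass, so that the lowest grass-fed value was 9.40 times the highest grain-fed one. Of the 4 genes it had the largest ratio of means, 14.5, and the fewest reads. Mean values were 1.49 ± 0.356 (SD, n = 2) on grain and 21.7 ± 7.49 (SD, n = 2) on grass, with a log2 difference of 3.15. The grain-fed share was 1.58 reads per 1000000 of the library (exact 95% binomial interval 0.724 to 3.01) in library 1 and 0.919 (0.337 to 2.0) in library 2, and the intervals overlap. On grass these shares were 21.4 (18.1 to 25.2) and 33.8 (29.8 to 38.3), and these intervals do not overlap. Such intervals cover counting error only.

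YBX1 was counted 851 and 920 times under grain feeding, and 5570 and 5242 times under grass feeding. These reads gave normalised values of 165 and 188 for grain against 629 and 561 for grass, and neither pair differed by more than 1.14-fold. The mean was 177 ± 16.6 (SD, n = 2) on grain and 595 ± 48.5 (SD, n = 2) on grass, a ratio of 3.37 and a log2 difference of 1.75. Among the 4 genes its ratio of single libraries varied least, between 2.98 and 3.82.

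For ENSBTAG00000016688 the counts were 341 and 217 under grain feeding against 1665 and 1844 under grass feeding, with normalised values of 66.1 and 44.4 against 188 and 197. The grass-fed pair differed by 1.05-fold and the grain-fed pair by 1.49-fold. The mean was 55.2 ± 15.3 (SD, n = 2) on grain and 193 ± 6.46 (SD, n = 2) on grass, a ratio of 3.49 and a log2 difference of 1.81. Its change was close in size to that of YBX1, and the ratios of single libraries lay between 2.85 and 4.44.

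**Figure D1:**
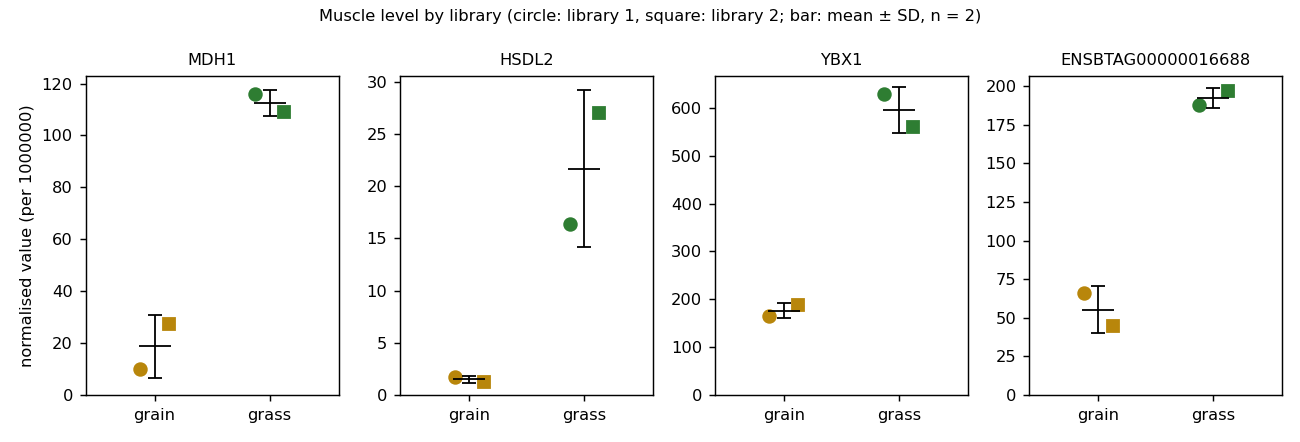
Normalised value per 1000000 (linear axis from 0) of the 4 genes in each of the 4 muscle libraries, with circles for library 1, squares for library 2, and bars for the mean ± SD of 2 libraries. The grass-fed libraries lie above the grain-fed ones in each panel, and the wide pairs are grain-fed for MDH1 (10.1 and 27.4) and grass-fed for HSDL2 (16.4 and 27.0).

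The split of a pair's reads shows how far the libraries of a diet repeated each other. Its intervals cover counting error only, without PCR duplication or library preparation, and with 1 library per steer the steer and the library cannot be told apart. The effective library sizes of the deposited values would put 51.4% of the grain-fed reads and 48.6% of the grass-fed reads in library 1, and the read totals 46.5% and 47.6%. On grain, 28.0% of the MDH1 reads were in library 1 (exact 95% interval 21.6 to 35.0), below both expected shares. For ENSBTAG00000016688 it was 61.1% (56.9 to 65.2), above both. The departures of these genes in the grain-fed pair thus had opposite directions. The grain-fed split of YBX1 was 48.1% (45.7 to 50.4), which holds the share expected from read totals but not the one from effective sizes. For HSDL2 it was 60% (32.3 to 83.7), an interval too wide at 15 reads to show a difference between the grain-fed libraries.

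On grass, ENSBTAG00000016688 at 47.4% (45.8 to 49.1) held both expected shares within its interval, and MDH1 at 50.0% (47.8 to 52.2) held the one from effective sizes and lay just above the one from read totals. YBX1 lay at 51.5% (50.6 to 52.5) of 10812 reads, an interval above both expected shares. HSDL2 was the gene whose grass-fed libraries differed most, with 36.5% (31.8 to 41.5) of 397 reads in library 1.

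**Figure D2:**
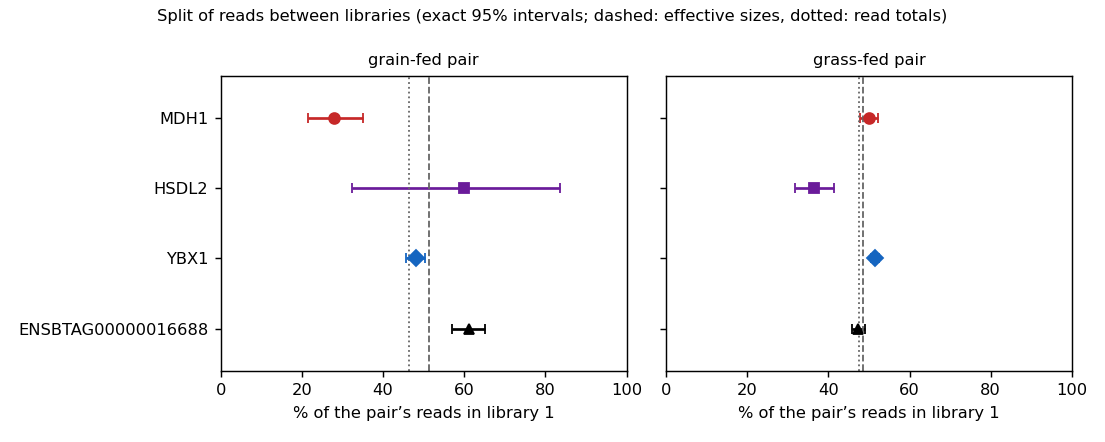
Percent of the reads of each diet's 2 libraries that were in library 1, for the 4 genes, with exact 95% binomial intervals; the dashed line is the share expected from the effective library sizes and the dotted line that from the read totals. MDH1 (28.0%) and ENSBTAG00000016688 (61.1%) lie on opposite sides of the lines in the grain-fed pair, and HSDL2 (36.5%) lies below them in the grass-fed pair.

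Over the 10461 genes tested, whose mean normalised value reached 1, the log2 difference had a median of 0.11, quartiles of -0.52 and 0.81, and a range from -5.29 to 3.42. All 4 genes described passed this filter. HSDL2 was exceeded by 3 genes (0.0287% of those tested), MDH1 by 37 (0.354%), ENSBTAG00000016688 by 412 (3.94%) and YBX1 by 484 (4.63%). These places depended on the processing and on single libraries. On the fold changes of the edgeR quasi-likelihood fit, 3.89% of the genes exceeded HSDL2, 7.12% MDH1, 12.2% ENSBTAG00000016688 and 12.6% YBX1, and with a pseudocount of 0.5 the numbers were 19, 146, 850 and 955 genes in the same order. With libraries left out, 5.39% of the genes exceeded MDH1 and 10.4% YBX1 without grain-fed library 1, 12.6% exceeded ENSBTAG00000016688 without grain-fed library 2, and 1.43% exceeded HSDL2 without grass-fed library 2. The genes next to them in this order had differences of 3.15 and 3.29 around HSDL2, 2.67 and 2.70 around MDH1, 1.81 on both sides of ENSBTAG00000016688 and 1.75 on both sides of YBX1. The place of a gene in this order is part of how the 4 were chosen and is not evidence for them.

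**Figure D3:**
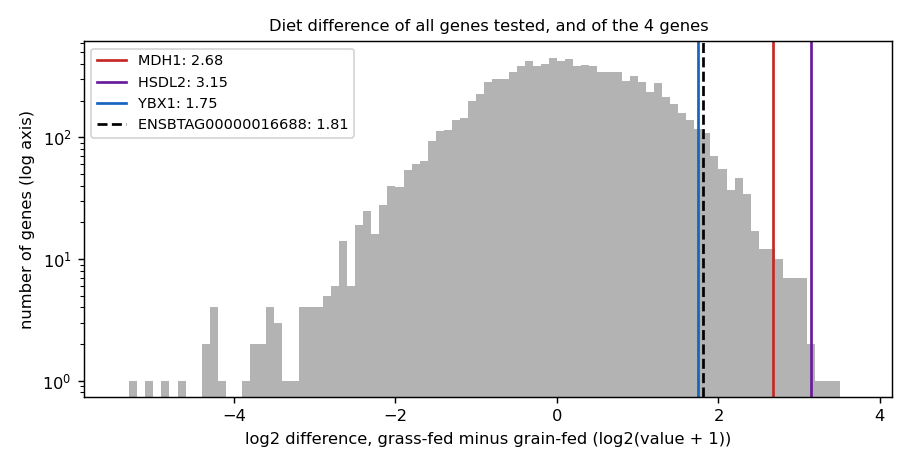
Histogram of the log2 difference, grass-fed minus grain-fed, of the 10461 genes tested, with a log count axis and lines at the 4 genes. YBX1 (1.75) and ENSBTAG00000016688 (1.81) lie near the 95th percentile of 1.72, and MDH1 (2.68) and HSDL2 (3.15) in the far right tail.

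All 4 genes had both grass-fed libraries above both grain-fed libraries, as did 24.9% of the genes tested; 18.2% had the opposite order. The gap between the lowest grass-fed and the highest grain-fed library was 2.66 for HSDL2, 1.96 for MDH1, 1.57 for YBX1 and 1.50 for ENSBTAG00000016688 on the log2 scale. A gap of at least 1 was found for 564 genes (5.39% of those tested), and for 275 genes in the opposite direction. The number of genes with a larger gap was 4 for HSDL2, 54 for MDH1, 168 for YBX1 and 190 for ENSBTAG00000016688. These numbers too come from the contrast that chose the genes and are not evidence for them.

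The difference within a diet had a median of 0.92 between the grain-fed and 0.45 between the grass-fed libraries over all genes tested, on the log2 scale. YBX1 was below both medians, with 0.19 on grain and 0.17 on grass, and so was ENSBTAG00000016688, with 0.56 and 0.07. MDH1 was above the grain-fed median at 1.36 and below the grass-fed one at 0.08. HSDL2 had the reverse pattern, with 0.29 on grain and 0.69 on grass. The grain-fed spread of HSDL2 comes from 9 and 6 reads and is narrowed by the added 1, its values being 1.41-fold apart. Other genes with a difference between diets at least as large and spreads at most as wide in both diets were counted. There were 10 for YBX1, 15 for ENSBTAG00000016688, 1 for MDH1 and 0 for HSDL2. The 4 genes were chosen from the same libraries and contrast, so these counts are a description and not evidence for them.

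**Figure D4:**
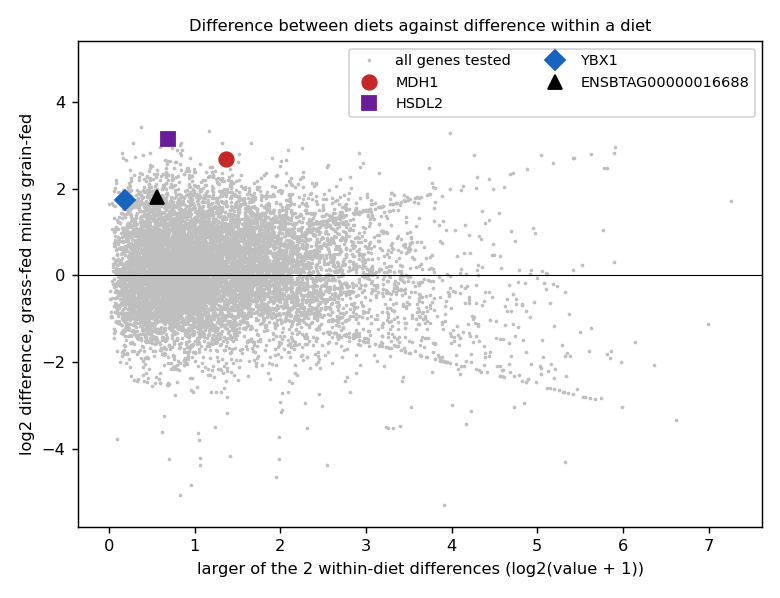
Log2 difference between diets (vertical) against the larger of the 2 differences within a diet (horizontal), both on the log2(value + 1) scale, for the 10461 genes tested in grey and the 4 genes as marked. Of the 4 genes, YBX1 sits furthest left (0.19, 1.75) and MDH1 furthest right (1.36, 2.68).

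The limma fit, with Benjamini-Hochberg adjustment and the threshold of 0.1 used in the study, called 0% of the 10461 genes and thus 0 of the 4, with 918 genes at an unadjusted p under 0.05. The edgeR quasi-likelihood test on the recovered reads called 0 genes as well, and 909 had an unadjusted p under 0.05. The likelihood ratio test of edgeR on the same reads called 1.53% of the genes as higher on grass, and all 4 were among them. DESeq2 called 0.841% of the genes as higher on grass, again with all 4 among them. The 4 genes were chosen by this contrast, so these counts say nothing further about them.

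Ratios of reads within 1 library do not depend on library size, and they are given as a description of the same reads that chose the genes. MDH1 reads amounted to 6.11% and 14.6% of the YBX1 reads on grain and to 18.4% and 19.5% of them on grass. For HSDL2 the shares were 1.06% and 0.652% on grain against 2.60% and 4.81% on grass. The grain-fed shares of MDH1 lay further apart from each other than the higher of them from the grass-fed shares. ENSBTAG00000016688 had 40.1% and 23.6% on grain and 29.9% and 35.2% on grass, and here the diets overlapped.

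The profiles over the 4 libraries, centred on each gene's mean, were compared by Euclidean distance among 4449 genes whose mean normalised value reached 10. YBX1 and ENSBTAG00000016688 were the closest pair of the 4, at a distance of 0.56, and each held place 39 in the order of the other. MDH1 lay at 1.24 from YBX1, 1.37 from HSDL2 and 1.61 from ENSBTAG00000016688. The closest gene of all was at 0.0373 for YBX1, 0.0874 for ENSBTAG00000016688, 0.407 for MDH1 and 0.484 for HSDL2. Within a distance of 0.5 there were 28 genes for YBX1 and 31 for ENSBTAG00000016688, against 3 for MDH1 and 1 for HSDL2. None of the 10 nearest genes of any of the 4 could be paired with a gene name, and 4 libraries carry little information on likeness.

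The scaling of the libraries moved with diet and with it the size of each change. The 20 genes with most reads took 49.9% and 55.7% of the reads on grain and 42.9% and 44.2% on grass. The deposited column totals were 7442724 and 9036668 on grain and 5174023 and 5383552 on grass. The median log2 difference over all genes was 0.11 as deposited and 0.45 with reads scaled without those 20 genes. How much of the scaling these genes account for was not tested. By plain share of library reads, single grass-fed libraries exceeded single grain-fed ones by 6.69 to 16.5 times for MDH1, 13.5 to 36.8 times for HSDL2, 4.70 to 5.83 times for YBX1 and 4.10 to 7.45 times for ENSBTAG00000016688. When every column was brought to the same total, the median over all genes was 0.67 and the 4 differences were 3.29 for MDH1, 3.65 for HSDL2, 2.38 for YBX1 and 2.44 for ENSBTAG00000016688. Relative to that median they stood at 2.62, 2.98, 1.71 and 1.77, against 2.56, 3.04, 1.63 and 1.70 as deposited. The 4 genes were higher on grass in each of the settings run.

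**Figure D5:**
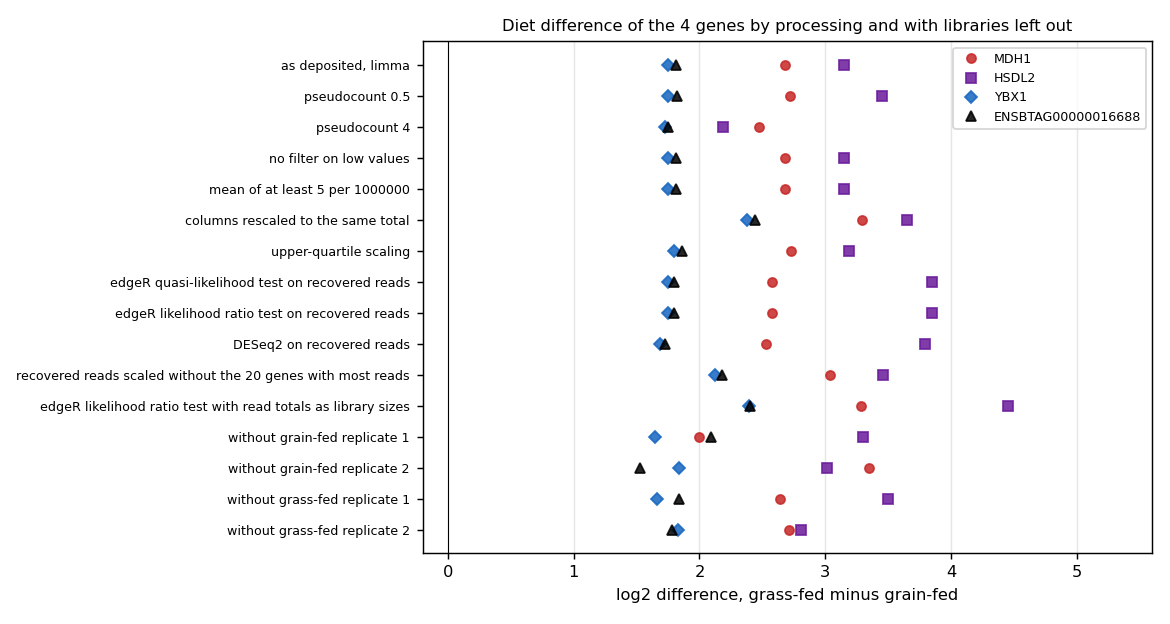
Log2 difference between diets of the 4 genes under each processing setting and with each library left out, with the deposited scaling in the top row. All values lie above 0, from 1.53 for ENSBTAG00000016688 without grain-fed library 2 to 4.45 for HSDL2 with read totals as library sizes.

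The listed markers of other tissues that could be paired differed widely between the libraries of a diet. The differences of the 4 genes are given without the library that held most of these markers. Of 8 intestinal epithelium markers, 5 could be paired with an identifier, and their summed reads were 1478 and 23 for grass-fed libraries 1 and 2, against 4 and 0 for the grain-fed libraries. VIL1, RBP2, KRT20 and FABP2 were at 0 outside grass-fed library 1. The 2 of 7 lymphocyte markers with an identifier, LCK and GIMAP7, had 297 reads in the first grass-fed library, 12 in the second and 0 on grain. Of 7 liver markers, FGB and TTR could be paired, whose summed reads were 1694 and 86 for grain against 21 and 0 for grass, TTR being at 0 outside grain-fed library 1. KRT5 and CA12 are on none of these marker lists. On grain KRT5 had 100 and 189 reads and CA12 71 and 112, and both were at 0 on grass. Leaving out a single library does not remove them. All these names come from genes the study picked in these same libraries. Without grass-fed library 1, the log2 difference was 2.64 for MDH1, 3.50 for HSDL2, 1.66 for YBX1 and 1.84 for ENSBTAG00000016688. Without grain-fed library 1 it was 2.0, 3.30, 1.65 and 2.09 in the same order.

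CDHR5 (ENSBTAG00000047914), an intestinal brush border cadherin that is also a qPCR gene of the study, had a log2 difference of 2.82, between those of MDH1 and HSDL2. Its reads were 4 and 0 on grain and 221 and 23 on grass, and its grass-fed libraries differed by 2.92 on the log2 scale, against at most 0.69 for the 4 genes.

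None of the 94 entries in 6 lists around the 4 genes, which cover the malate-aspartate shuttle, the citric acid cycle, glycolysis, fatty acid oxidation, peroxisomal relatives of HSDL2 and messenger RNP proteins, could be paired with an identifier of the table. The partners of MDH1, HSDL2 and YBX1 are therefore not analysed here. The same holds for the 16 skeletal muscle markers, so the labelled tissue was not checked. In a bulk sample of muscle, a change in the number of cells of a type and in the RNA per cell cannot be told apart. Genes such as YBX1 and MDH1 have processed copies in mammalian genomes, and how reads shared with such copies were counted is not given in the sources used here, so their levels are uncertain to that extent.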

How the data were processed

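RNA-Seq was performed on longissimus dorsi of 2 grass-fed and 2 grain-fed steers. The authors aligned reads with Bowtie to BosTau6 (UMD3.1), counted them with GenomicRanges and normalized them with edgeR, with no version stated in the sources used here. Their unit is a normalised signal: the authors deposited pseudo-counts of 24616 genes, set to 1 common library size shared by both diets. The adjustment was inverted with a fitted dispersion of 0.605, which returned whole numbers of reads in 100% of genes having any (relative tolerance 1e-05). The inversion and the test were tried on simulated counts.

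Values per 1000000 of the mean column total were taken as log2(value + 1). In R 4.3.3, limma 3.58.1 (trend) was applied where a gene's mean reached 1 per 1000000. The threshold was a Benjamini-Hochberg adjusted p under 0.1. The alternatives were pseudocounts of 0.5 and 4, other filters and scalings, edgeR 4.0.16 and DESeq2 1.42.0 on recovered reads, leaving out single libraries, and a threshold of 0.05. Scaling without the 20 genes with most reads and read totals as library sizes were added after seeing the data. Each steer gave 1 library, and p-values measure the spread between them.

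The genes and lists were chosen with earlier results of these data known. The rule for named genes took the 4 genes, called genes of the lists around them, their neighbours in the order of differences as values, and the 10 genes nearest in profile. CDHR5, another qPCR gene, KRT5, CA12 and the paired markers fall outside it and were chosen after their values were seen. Identifiers were paired with symbols through the primer table of the study and, for top molecules, through their log ratios used as a key. The tables of the reference genome, ARS-UCD2.0, pair none of them, and no coordinates are given. Counts of genes with larger differences are descriptions. Metabolites are not used here.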

Additional observations from a re-analysis of the deposited data

How the results depend on the processing

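The count of 0 genes called by limma held with either pseudocount, each filter and scaling, a threshold of 0.05, and in the edgeR quasi-likelihood test; with each library left out it ranged from 0 to 0, where a diet's single library borrows the spread of the other pair. The edgeR likelihood ratio test called 330 genes, 160 higher on grass and 170 lower, DESeq2 351, 88 higher and 263 lower, and the likelihood ratio test with read totals as library sizes 569, 486 higher and 83 lower; the cause was not tested. The log2 difference of HSDL2, 3.15, fell to 2.19 with a pseudocount of 4, by the construction of the scale, and was 3.65 with columns rescaled to the same total, 3.85 in both edgeR tests, 3.79 in DESeq2 and 4.45 with read totals. YBX1 moved to 2.38 with rescaled columns, 2.12 without the 20 genes with most reads and 2.39 with read totals, and ENSBTAG00000016688 to 2.44, 2.18 and 2.40. MDH1 went to 3.29 with rescaled columns, 3.04 without the 20 genes with most reads and 3.28 with read totals. In each setting that kept all libraries it moved by less than its replicate spread. That spread was wide, with a pooled SD of 0.68 on the log2 scale, against 0.13 for YBX1 and 0.28 for ENSBTAG00000016688. With libraries left out, the ranges were 2.0 to 3.35 for MDH1, 2.81 to 3.50 for HSDL2, 1.65 to 1.84 for YBX1 and 1.53 to 2.09 for ENSBTAG00000016688. The place among all genes depended on the treatment of low values and on scaling: the genes with a larger difference than MDH1 went from 37 to 146 with a pseudocount of 0.5 and 1 with 4, those above HSDL2 from 3 to 19 and 5, the genes above YBX1 went from 484 to 955 and 51 and those above ENSBTAG00000016688 from 412 to 850 and 43. With columns rescaled to the same total the numbers were 19 for MDH1, 2 for HSDL2, 291 for YBX1 and 247 for ENSBTAG00000016688, and in the edgeR quasi-likelihood test 7.12% of the genes exceeded MDH1, 3.89% HSDL2, 12.6% YBX1 and 12.2% ENSBTAG00000016688. The planned counts over gene lists were not run, since no list gene could be paired. No paired analysis was possible because no number in the labels is common to steers of both diets. Depth limits the grain-fed value of HSDL2, which rests on 15 reads.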
